A study of Danio rerio with 4 samples.

Results

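The forkhead (Fox) genes encode transcription factors that share a winged-helix DNA-binding domain, and they are sorted into subfamilies named by letters. Several mark or build the tissues of the early embryo. FoxA proteins open chromatin in endoderm, notochord and floor plate. FoxC and FoxF proteins act in somitic, lateral plate and vascular mesoderm, FoxD3 in neural crest, FoxI proteins in placodes and epidermal ionocytes, FoxJ1 in cells with motile cilia, and FoxH1 is a DNA-binding partner of the Smad proteins that carry Nodal signals. FoxO, FoxK, FoxM, FoxN and FoxP proteins are active in many cell types.

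Expression of this family was read from RNA sequencing of Tg(nkx2.5:ZsYellow) zebrafish embryos of 14 to 16 somites, a laboratory strain in which nkx2.5 regulatory sequence drives the fluorescent protein ZsYellow. Both groups carried the transgene. The ZsYellow-positive cells are described by the labels as progenitors of heart and pharynx together with cardiomyocytes. The ZsYellow-negative cells are those without the fluorescence. Whether a positive and a negative library came from the same embryos cannot be told from the sample titles. Each group had 2 replicate libraries, giving 4 in all. The labels do not say whether replicates came from separate batches of embryos, so p-values measure only the spread between these libraries. The reporter marks every cell that makes the fluorescent protein, so the positive group is a mixture of cell types.

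Members were all Ensembl gene IDs whose symbol, ignoring case, is fox followed by a letter from a to r and a number, with 10 or more counts in at least 2 libraries. Of 62 IDs with such a name among the 25873 in the table, 50 met the count minimum and 12 did not. Of the 50, 47 had 10 or more counts in all 4 libraries. One reached the minimum only in the positive libraries, with 22 and 11 counts there and 4 and 3 counts in the negative libraries, and it was too low to be tested. The IDs under the minimum included FOXB2 and foxq2 with 0 counts everywhere, and foxe1, foxl2l, foxn1, foxo6a, foxo6b, foxp3a, foxp3b, foxr1 and the FOXO1 ID ENSDARG00000061549, with at most 14 counts in any library. The gene foxa has no number in its name and falls outside the rule. It had 18.7 and 14.7 TPM in positive cells and 16.9 and 19.9 TPM in negative cells and was not called (log2 change -0.12 ± 0.228, edgeR adjusted p 0.774).

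Some symbols in the table are written in the human style. They are given here in lower case, and FOXC1, FOXJ1 and FOXQ1 are taken as foxc1a, foxj1a and foxq1a because their other copies have IDs of their own. A symbol was shared with another ID for 9 members (FOXB1, FOXK2, FOXL2, FOXN2 and FOXO1), and these are given in capitals with their ID, since the names do not say which copy each is. Reads of similar copies may have been divided between IDs, so single values of copies are uncertain.

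Levels between genes are given as TPM, a transcript measure scaled to a fixed library sum, which allow for transcript length. Fold changes are positive over negative cells, from edgeR's quasi-likelihood test on the counts, written as log2 change ± standard error (SE), and a gene was called at a Benjamini-Hochberg adjusted p under 0.05 over all genes tested. Library totals ran from 31996733 to 40133331 counts. The gene nkx2.5, whose regulatory sequence drives the reporter, had 332.3 and 436.8 TPM in positive cells, against 5.05 and 4.48 TPM in negative cells. Of the cardiac and pharyngeal mesoderm markers, 8 of 8 and 3 of 3 tested genes were called higher in positive cells, as the label of the positive group implies. Endothelial markers were also called higher, in 7 of 7. In bulk libraries, fewer cells of a type and less RNA per cell cannot be told apart.

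Forkhead genes went both ways between the sorted groups. Of the 49 members tested, 9 were called higher in positive cells and 18 lower, against 9.02% higher and 8.07% lower over all 19084 genes tested. Together 27 members, or 55.1%, were called, beside 17.1% of all genes. The median log2 fold change of the tested members was -0.24, and that of all genes tested was -0.009. A change of at least 2-fold was called higher in 6 members, beside 6.87% of all genes, and lower in 17, beside 6.75% of all genes. In 36 members, or 73.5%, the positive and negative libraries did not overlap in library-scaled counts (CPM), beside 58.3% of all genes, and all 27 called members were among them.

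**Figure D1:**
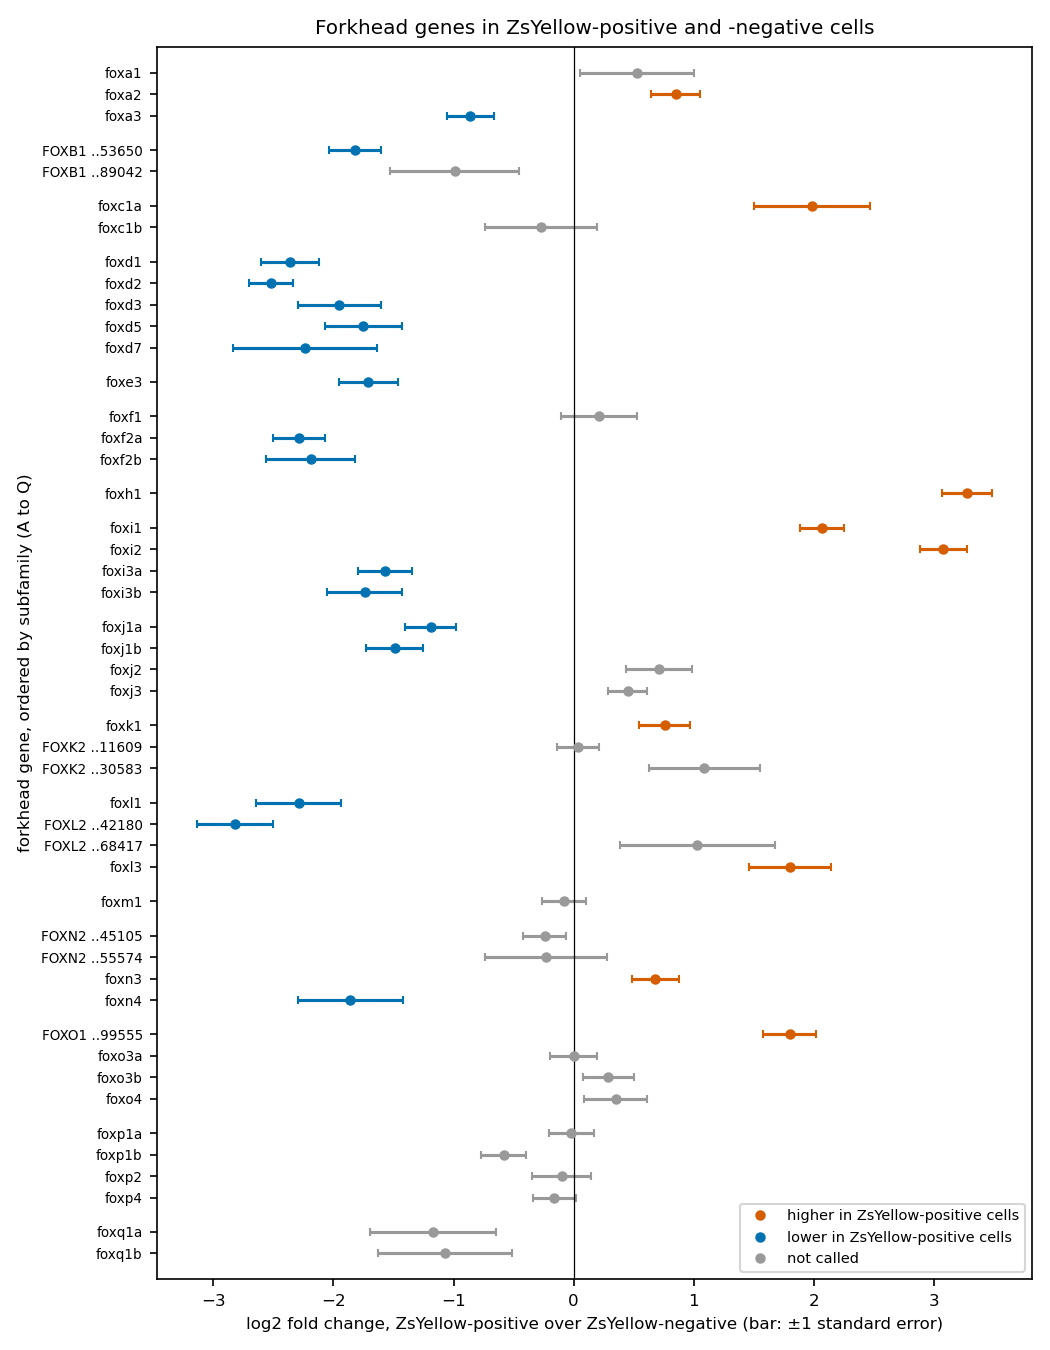
Log2 fold change (x axis, ZsYellow-positive over ZsYellow-negative, edgeR) of 47 tested forkhead genes in order of subfamily, with bars of 1 SE either side and n = 2 libraries per group. The 5 FoxD genes all lie left of 0, and foxh1, foxi2, foxi1 and, with a wide bar, foxc1a lie furthest to the right. The FoxP genes lie between -0.58 (foxp1b) and -0.02. Genes whose symbol is shared by several IDs carry the last digits of their ID.

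The summed level of the family was similar in both groups, at 677.8 and 656.3 TPM in positive libraries and 676.3 and 576.0 TPM in negative libraries. The shares of some subfamilies in it differed, while foxp4, FOXK2 (ENSDARG00000011609) and foxi1 were among the most abundant members in both groups. FoxI genes gave 23.5% and 27.6% of the family's TPM in positive libraries, against 8.62% and 8.75% in negative libraries. FoxD genes gave 3.68% and 2.56% in positive libraries, against 16.2% and 15.7% in negative libraries. FoxP genes were abundant in both, with 17.8% and 22.1% in positive libraries and 24.6% and 25.1% in negative libraries. By mean TPM the order in positive cells was foxi1, foxp4, foxi2, FOXK2 (ENSDARG00000011609), foxc1a and foxh1, and these 6 genes held 58.6% and 58.8% of the family's TPM in the positive libraries. In negative cells the order was foxp4, FOXK2 (ENSDARG00000011609), foxd2, foxp1a, foxd1 and foxi1. Single-library values overlapped there between foxd2 and foxp1a and between foxd1 and foxi1. Within the positive order, the single-library values of foxc1a spanned those of foxh1, foxi2 and FOXK2. Their places beside foxc1a are therefore not separated by more than the replicate spread. In positive replicate 1 foxc1a, at 82.8 TPM, also lay above foxp4, at 73.5 TPM. The values of foxi2 (54.1 and 62.1 TPM) and FOXK2 (57.3 and 58.9 TPM) overlapped, so their order is not separated either.

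**Figure D2:**
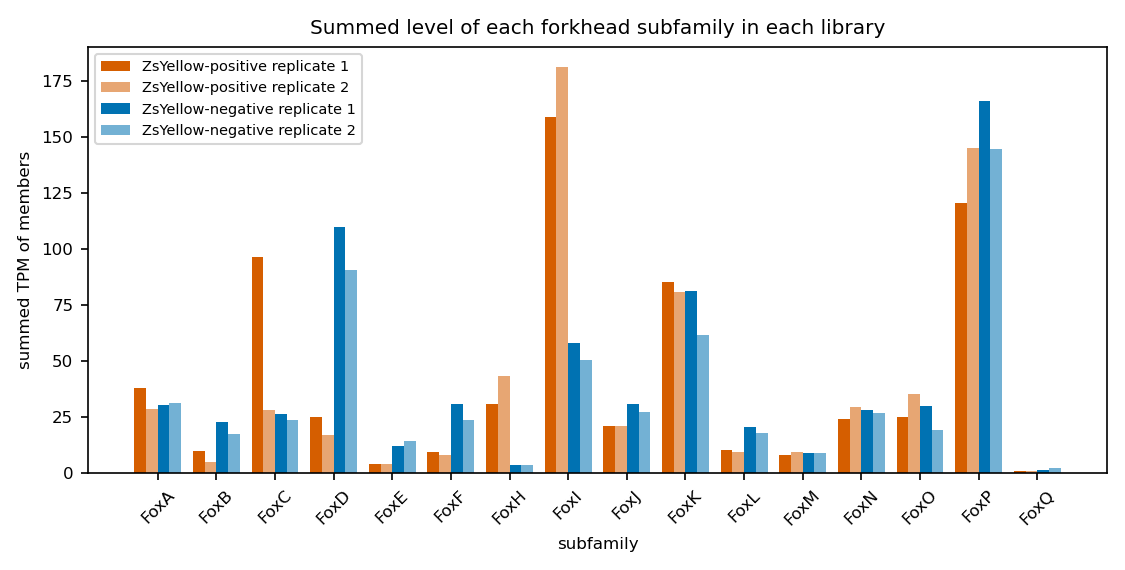
Summed TPM (y axis) of the members of 16 forkhead subfamilies (x axis) in each of the 4 libraries, 1 bar per library. FoxC, FoxH and FoxI bars are taller in both ZsYellow-positive libraries than in either negative one. FoxB, FoxD, FoxE, FoxF, FoxJ, FoxL and FoxQ bars are taller in both ZsYellow-negative libraries than in either positive one. The FoxC bar stands out in ZsYellow-positive replicate 1 at 96.4 TPM.

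The highest fold change among the tested members was that of foxh1, the Nodal effector. It had 30.7 and 43.5 TPM in positive cells, against 3.56 and 3.67 TPM in negative cells. Both positive libraries lay far above both negative ones, a 9.74-fold difference (log2 change 3.28 ± 0.208, edgeR adjusted p 2.91e-05). Only 5 of the 9 entries listed as FoxH1 partners or Nodal effectors were matched to an ID by name. Of these 5 genes, all tested, 2 were called higher and 3 were not called. One was tdgf1, the Nodal co-receptor known as one-eyed pinhead, with 181.3 and 237.2 TPM in positive cells and 31.2 and 27.8 TPM in negative cells (log2 change 2.84 ± 0.187, edgeR adjusted p 3.48e-05). The other was smad2, a signal carrier that FoxH1 binds, at a log2 change of 1.01 ± 0.195 (edgeR adjusted p 0.00731). The lowest of the list, gsc, a Nodal target in the gastrula, was at -1.55 and not called (edgeR adjusted p 0.0881). Low counts stood behind gsc, with 16 and 10 counts in positive cells and 49 and 29 in negative cells.

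The FoxI subfamily was split. FoxI1 is required in the otic placode and in epibranchial placodes, which give rise to cranial sensory neurons, and foxi3a and foxi3b direct the formation of skin ionocytes. The gene foxi1 was the most abundant forkhead gene of positive cells, with 98.9 and 110.9 TPM, against 24.4 and 26.0 TPM in negative cells (log2 change 2.07 ± 0.18, edgeR adjusted p 0.000123). Its relative foxi2 had 54.1 and 62.1 TPM in positive cells, against 7.98 and 5.95 TPM in negative cells (log2 change 3.08 ± 0.194, edgeR adjusted p 2.91e-05). The groups did not overlap for either gene, and the replicates of each group lay close together. The TPM ratio of foxi1 to foxi2 was 1.83 and 1.78 in positive cells, against 3.06 and 4.37 in negative cells, so foxi2 made up more of the FoxI signal in the positive group. The ionocyte genes went the other way: foxi3a had 4.83 and 6.36 TPM in positive cells, against 19.3 and 14.3 TPM in negative cells (log2 change -1.57 ± 0.224, edgeR adjusted p 0.00156). In foxi3b the levels were 1.23 and 1.91 TPM in positive cells, against 6.62 and 4.08 TPM in negative cells (log2 change -1.74 ± 0.315, edgeR adjusted p 0.00544). The foxi3b change was -1.45 and not called without negative replicate 1.

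Markers of the tissues in which FoxI genes are known did not all move with foxi1 and foxi2. Of 5 otic and epibranchial placode markers tested, 4 were called lower and 1 was not called, with a summed level of 379.5 to 395.3 CPM in positive and 699.0 to 708.5 CPM in negative libraries. Most of that sum came from sox3, at 239.7 and 226.3 CPM in positive and 479.7 and 477.8 CPM in negative libraries. Of 5 ionocyte and epidermis markers, 4 were called lower and 1 was not called. Their sum was 697.1 to 1065.5 CPM in positive and 1625.8 to 1992.6 CPM in negative libraries. Most of it came from krt4, at 808.3 and 514.6 CPM in positive and 1628.0 and 1242.3 CPM in negative libraries. In the same list gcm2 had 1.96 and 1.70 CPM in positive and 5.61 and 5.26 CPM in negative libraries. For ca2 the values were 1.89 and 2.24 against 6.80 and 7.60 CPM, and both were called lower. Of 6 endoderm markers, 2 were called higher, 1 lower and 3 not called, and the higher ones, gata5 and gata6, are also cardiac genes. The summed level of all 6 endoderm markers was 461.5 to 554.0 CPM in positive and 135.8 to 157.8 CPM in negative libraries. Most of the positive sum came from gata5 and gata6. For gata5 the values were 270.4 and 287.6 CPM in positive, against 52.7 and 45.4 CPM in negative libraries. For gata6 they were 194.0 and 84.5 CPM in positive, against 5.78 and 6.06 CPM in negative libraries. The part of these cell types in the FoxI values was not tested.

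**Figure D3:**
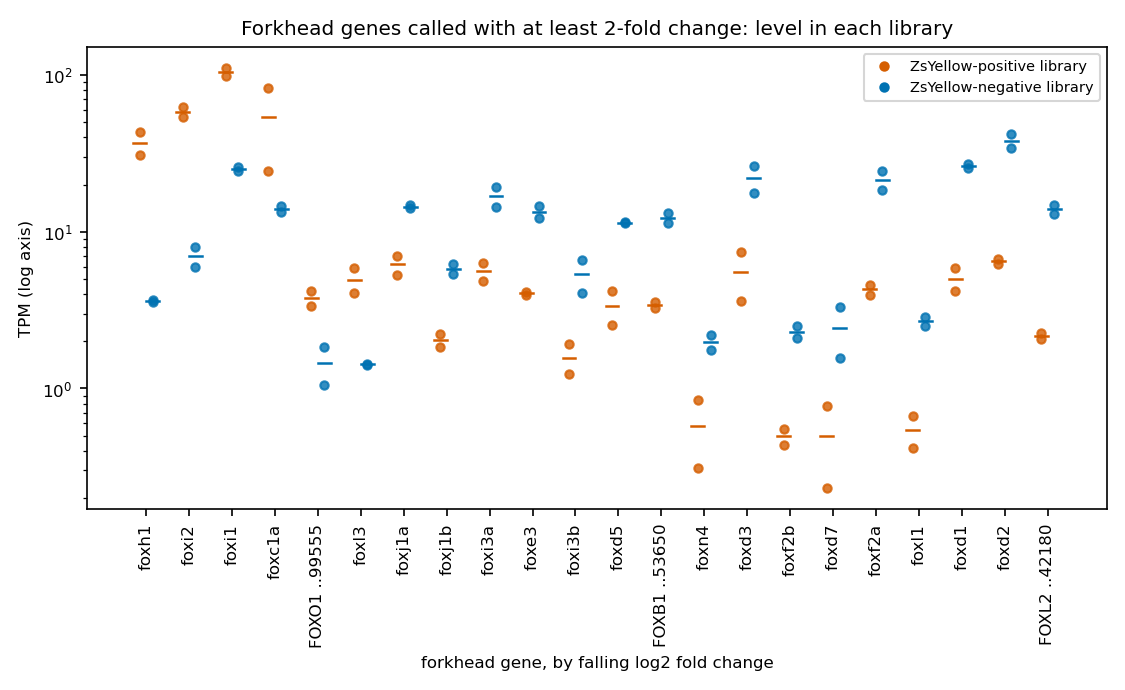
TPM (log y axis) of 22 forkhead genes called with at least a 2-fold change, in falling order of log2 fold change, with 1 point per library and a line at the mean of the 2 libraries of a group. The groups do not overlap for any of the 22, and in CPM they do not overlap for 58.3% of all genes tested. The ZsYellow-positive points of foxc1a lie far apart (82.8 and 24.4 TPM).

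FoxC genes act in paraxial and cranial mesoderm, blood vessels and neural crest. The gene foxc1a had 82.8 and 24.4 TPM in positive cells, against 14.7 and 13.3 TPM in negative cells. Both positive libraries lay above the negative ones, but positive replicate 2 was nearer to them than to positive replicate 1, and the log2 fold change of 1.99 had a wide error (SE 0.483, edgeR adjusted p 0.0213). The change shrank to 0.79 when positive replicate 1 was left out and grew to 2.65 when positive replicate 2 was, with both still called, and it was not called by the DESeq2 Wald test, by limma on log2(TPM + 1) or without either negative library. Its copy foxc1b had 13.5 and 4.07 TPM in positive cells, against 11.7 and 10.4 TPM in negative cells, so the groups overlapped (log2 change -0.27 ± 0.468, edgeR adjusted p 0.753). Without positive replicate 1 it was called lower, at -1.45.

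The balance between the FoxC copies was steadier than their levels. The TPM ratio of foxc1a to foxc1b was 6.12 and 5.99 in positive libraries, against 1.26 and 1.28 in negative libraries. With 2 libraries a group, the exact permutation test on such a ratio cannot give a two-sided p below 0.333, which is the value reached here, so the difference is given as a description. Separation without overlap is the outcome behind that floor, so random group labels would give it at a rate of 0.333 per pair. The splits of the other pairs are likewise descriptions. Of the other pairs of copies shown, the ratio also separated the groups without overlap for foxp1a to foxp1b, foxo3b to foxo3a and the FOXL2 IDs. It overlapped between groups for foxf2a to foxf2b (8.34 and 9.09 in positive, 11.6 and 7.39 in negative libraries), foxi3a to foxi3b, foxj1a to foxj1b, foxq1a to foxq1b and the FOXB1, FOXK2 and FOXN2 IDs. The FOXL2 IDs differed most, with a ratio of ENSDARG00000042180 to ENSDARG00000068417 of 0.62 and 2.59 in positive libraries and of 12.1 or more in both negative libraries.

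**Figure D4:**
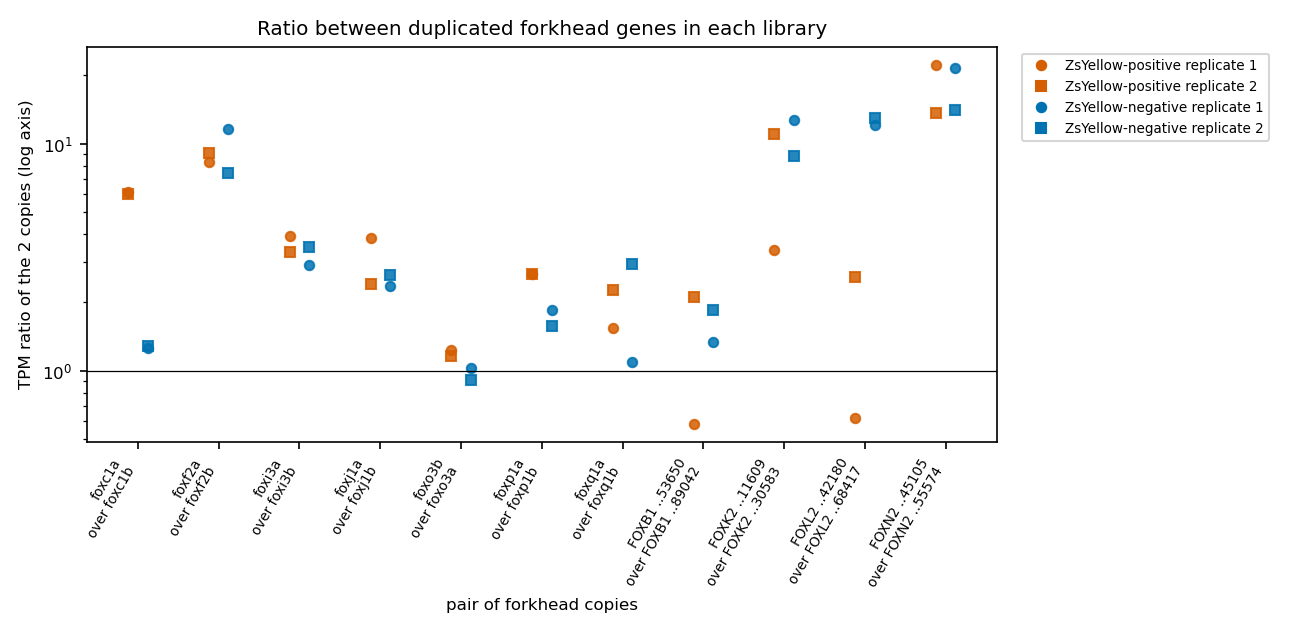
TPM ratio (log y axis) of 11 pairs of duplicated forkhead genes (x axis) in each library, with circles for replicate 1 and squares for replicate 2. The foxc1a to foxc1b ratio is near 6 in both ZsYellow-positive libraries (6.12 and 5.99) and lower in both ZsYellow-negative libraries (1.26 and 1.28), while foxf2a to foxf2b and foxi3a to foxi3b overlap between the groups.

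Gene order was looked up for the 41 members with a symbol of their own. In the RefSeq order of assembly GRCz12tu, foxq1, foxf2 and foxc1 lie beside each other in both of their duplicated sets, with at most 1 gene between neighbours. The differences between neighbours were not tested. In the first set, foxc1a was called higher (1.99), foxf2a lower (-2.29) and foxq1a was not called (-1.17). In the second, foxf2b was called lower (-2.19), while foxq1b (-1.07) and foxc1b (-0.27) were not called. Among these 41, foxe3 and foxd2 were also neighbours, and both were called lower.

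FoxF genes are best known from lateral plate mesoderm and the mesenchyme beside the gut, and foxf2 genes also from cranial neural crest. In foxf2a the level was 4.6 and 3.97 TPM in positive cells, against 24.4 and 18.4 TPM in negative cells (log2 change -2.29 ± 0.216, edgeR adjusted p 0.000187). The copy foxf2b was low, with 0.551 and 0.437 TPM in positive cells, against 2.1 and 2.49 TPM in negative cells (log2 change -2.19 ± 0.37, edgeR adjusted p 0.00375). The third member, foxf1, had 4.47 and 3.65 TPM in positive cells and 4.53 and 2.68 TPM in negative cells, which overlapped, and its log2 fold change of 0.21 had an SE of 0.316.

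All 5 FoxD genes were called lower in positive cells. FoxD3 is a regulator of neural crest, FoxD1 and FoxD2 are known from forebrain, retina and mesenchyme, and FoxD5 from the neural plate. The most abundant was foxd2, with 6.72 and 6.24 TPM in positive cells, against 41.8 and 34.2 TPM in negative cells (log2 change -2.52 ± 0.186, edgeR adjusted p 5.42e-05). For foxd1 the values were 5.86 and 4.16 TPM in positive cells, against 27.1 and 25.4 TPM in negative cells (log2 change -2.36 ± 0.243, edgeR adjusted p 0.000293). Both were lower by over 5-fold, at 5.75-fold for foxd2 and 5.14-fold for foxd1. In foxd3 the levels were 7.39 and 3.63 TPM in positive cells, against 26.2 and 17.8 TPM in negative cells (log2 change -1.95 ± 0.347, edgeR adjusted p 0.00488). The gene foxd5 had 4.21 and 2.54 TPM in positive cells, against 11.3 and 11.6 TPM in negative cells (log2 change -1.75 ± 0.321, edgeR adjusted p 0.00585). The scarcest, foxd7, had 23 and 8 counts in positive cells, against 102 and 51 counts in negative cells, with a log2 fold change of -2.24 and the widest error of the 5 (SE 0.6, edgeR adjusted p 0.0332). No positive library reached a negative one in any of the 5 genes. The calls of foxd5, without negative replicate 2, and foxd7, without either negative library, were lost, at -1.62 for foxd5 and, for foxd7, at -1.71 without negative replicate 1 and -2.61 without negative replicate 2. Leaving out positive replicate 1 moved foxd7 to -3.37, leaving out positive replicate 2 moved it to -1.55, and the foxd3 change was -2.60 without positive replicate 1, all still called.

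Some forkhead genes of brain and lens were called lower as well. In the FOXB1 ID ENSDARG00000053650, one of a pair of neural tube genes, the level was 3.56 and 3.25 TPM in positive cells, against 13.1 and 11.3 TPM in negative cells (log2 change -1.82 ± 0.216, edgeR adjusted p 0.000585). The other FOXB1 ID, ENSDARG00000089042, had 6.09 and 1.54 TPM in positive cells and 9.79 and 6.1 TPM in negative cells, and was not called (log2 change -0.99 ± 0.537, edgeR adjusted p 0.259). It was called lower with the replicate block (-1.28, edgeR adjusted p 0.0145) and without positive replicate 1 (-2.36), and stood at -0.28 without positive replicate 2. The lens gene foxe3 had 4.15 and 3.95 TPM in positive cells, against 12.2 and 14.5 TPM in negative cells (log2 change -1.71 ± 0.245, edgeR adjusted p 0.00157).

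Marker genes of neighbouring tissues were lower alongside these groups. Of 4 forebrain markers tested, 4 were called lower, with a summed level of 40.1 to 48.9 CPM in positive and 111.8 to 119.2 CPM in negative libraries. Of 5 hindbrain and spinal markers, 3 were called lower and 1, hoxb1a, higher. Their sum was 219.7 to 221.3 CPM in positive and 449.1 to 509.2 CPM in negative libraries. Most of the negative sum, and of the gap between the groups, came from sox19a. It had 88.6 and 72.6 CPM in positive and 366.8 and 297.4 CPM in negative libraries. Neural crest markers had 3 called lower and 2 not called of 5, at 120.5 to 145.6 CPM in positive and 320.6 to 351.6 CPM in negative libraries. Somite and presomitic markers had 8 called lower and 1 not called of 9, at 168.3 to 268.4 CPM in positive and 1221.0 to 1318.1 CPM in negative libraries. Pronephros markers had 3 called lower of 4 tested, blood markers 4 lower and 1 higher of 6, and hatching gland markers 3 lower and 1 higher of 4. Their part in the FoxB, FoxD and FoxE values was not tested.

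FoxJ1 is the master regulator of motile cilia, and both of its genes were lower. In foxj1a the levels were 7.05 and 5.32 TPM in positive cells, against 14.8 and 14.1 TPM in negative cells (log2 change -1.19 ± 0.212, edgeR adjusted p 0.00487). The copy foxj1b had 1.83 and 2.22 TPM in positive cells, against 6.25 and 5.35 TPM in negative cells (log2 change -1.49 ± 0.239, edgeR adjusted p 0.00278). Of 13 motile cilium genes tested, 9 were called lower and 4 were not called, with a median log2 fold change of -1.39. DESeq2 called 7 of the 13, limma on log2(TPM + 1) 8 and limma on log2(TPM + 0.1) 9. The lowest was cfap70 at -2.27 (edgeR adjusted p 0.0347), which had 9 and 4 counts in positive cells and 37 and 28 counts in negative cells, and the least changed was rfx3 at -0.20 (edgeR adjusted p 0.858). Counts were also low in the called genes dnai2b (8 and 11 in positive cells) and efhc2 (10 and 10 in positive cells). The best counted genes of the list were not called: rfx2 at -0.48 (edgeR adjusted p 0.141) and mns1 at -0.60 (edgeR adjusted p 0.0932). The called gene spag6, a component of the ciliary axoneme, had 94 and 100 counts in positive cells and 366 and 392 in negative cells. It was at -1.97 (edgeR adjusted p 0.00085), and was named after its values were seen. The part of cells with motile cilia in the FoxJ1 values was not tested. The other FoxJ genes, foxj2 and foxj3, are not known as regulators of ciliogenesis and were not called, at 0.71 (edgeR adjusted p 0.114) and 0.45 (edgeR adjusted p 0.103). The call of foxj1a was lost without negative replicate 2, at -1.13.

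The FoxA genes, which specify endoderm and the axial midline, differed among themselves. In foxa2 the level was 17.1 and 15.9 TPM in positive cells, against 10.6 and 8.14 TPM in negative cells (log2 change 0.85 ± 0.204, edgeR adjusted p 0.0205), and that call was lost under both limma alternatives and without either negative library. The gene foxa3 was lower in positive cells, at 8.03 and 8.79 TPM against 14.3 and 16.4 TPM in negative cells (log2 change -0.86 ± 0.197, edgeR adjusted p 0.0171), and was not called without negative replicate 2 (-0.65). The replicates of foxa1 disagreed in positive cells, at 12.9 and 4.03 TPM, and spanned the 5.49 and 6.56 TPM of negative cells. Only 3 of the 9 entries in the notochord and floor plate list were matched, and the floor plate entries were not among them. Of these 3, 2 were called lower. The summed level of the 3 was 26.8 to 33.1 CPM in positive and 146.6 to 166.6 CPM in negative libraries. Most of it came from tbxta, at 20.1 and 21.1 CPM in positive and 117.9 and 135.4 CPM in negative libraries. The gene not called, col8a1a, was at -0.41 (edgeR adjusted p 0.652). The part of notochord and floor plate in the FoxA values was not tested.

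FoxL genes also went both ways. The FOXL2 ID ENSDARG00000042180, from a subfamily known from ovary and cranial mesenchyme, had the lowest fold change of all members, with 53 and 40 counts in positive cells, against 335 and 329 counts in negative cells (log2 change -2.82 ± 0.316, edgeR adjusted p 0.000427). The mesenchymal gene foxl1 had 0.418 and 0.664 TPM in positive cells, against 2.86 and 2.52 TPM in negative cells (log2 change -2.29 ± 0.353, edgeR adjusted p 0.00234). The gene named foxl3 was called higher, with 4.07 and 5.83 TPM in positive cells, against 1.43 and 1.42 TPM in negative cells (log2 change 1.80 ± 0.341, edgeR adjusted p 0.00673), and was not called without negative replicate 1 (1.71). That name has also been used for foxl2l, which has an ID of its own here and was under the count minimum. The remaining FOXL2 ID, ENSDARG00000068417, was not called, since its positive replicates, at 3.63 and 0.797 TPM, spanned both negative values.

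Among the broadly expressed subfamilies, FOXO1 (ENSDARG00000099555) stood out. FoxO proteins are held in the cytoplasm by insulin and Akt signalling, and FoxO1 is known for its part in blood vessel formation in mice. It had 520 and 756 counts in positive cells, against 184 and 177 counts in negative cells (log2 change 1.80 ± 0.218, edgeR adjusted p 0.000645), and on the TPM scale 3.34 and 4.19 in positive cells, against 1.84 and 1.05 in negative cells. The change shrank to 0.98 with limma on log2(TPM + 1), where it was still called. The other FoxO members, foxo3a, foxo3b and foxo4, were not called, with log2 fold changes from 0.00 to 0.35 and overlapping groups. Of 7 tested genes of the insulin and Akt pathway, 1 was called higher and 1 lower. The kinase gene sgk1 was the highest, at 1.41 (edgeR adjusted p 0.001), and akt3a the lowest, at -1.27 (edgeR adjusted p 0.0399). Only 7 of the 22 list entries could be matched to an ID by name. Endothelial markers, given above, were higher in the same libraries, at 967.3 to 1312.0 CPM in positive and 314.6 to 390.0 CPM in negative libraries, and their part in the FOXO1 value was not tested.

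FoxM1, which drives mitotic genes, had overlapping groups, with 8.03 and 9.44 TPM in positive cells and 9.19 and 8.96 TPM in negative cells (log2 change -0.08 ± 0.184, edgeR adjusted p 0.832). Of 11 mitotic genes listed as its targets, edgeR's quasi-likelihood test called 0 in either direction, with log2 fold changes from -0.40 (ccnb2, edgeR adjusted p 0.195) to 0.39 (kif20a, edgeR adjusted p 0.139). At an unadjusted p under 0.05 edgeR passed 1 of the 11, and DESeq2 and limma called 0. Several forkhead proteins bind Groucho corepressors. Of 7 entries in a list of Groucho family genes, 4 were matched and tested, and edgeR called 0. Their log2 fold changes ran from 0.49 for tle5 (edgeR adjusted p 0.459) to 1.14 for tle2c (edgeR adjusted p 0.0632). At an unadjusted p under 0.05 edgeR passed 2 of the 4, DESeq2 called 0 and limma 1.

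The 4 FoxP members were not called by edgeR with TMM factors, which passed 1 at an unadjusted p under 0.05, or by DESeq2 or limma on TPM. The most abundant forkhead gene of negative cells, foxp4, had 73.5 and 86.0 TPM in positive cells and 89.4 and 90.7 TPM in negative cells (log2 change -0.16 ± 0.177, edgeR adjusted p 0.615). In foxp1a, a gene with roles in heart and motor neurons, the groups overlapped, at 30.1 and 39.7 TPM in positive cells and 45.6 and 30.3 TPM in negative cells. That 1 was foxp1b, with 11.3 and 14.8 TPM in positive cells and 24.5 and 19.3 TPM in negative cells, at a log2 change of -0.58 (edgeR adjusted p 0.0658). With upper-quartile factors edgeR called it lower, at -0.68 (adjusted p 0.0336). Of the FoxK genes, the abundant FOXK2 ID ENSDARG00000011609 had 57.3 and 58.9 TPM in positive cells and 66.3 and 49.1 TPM in negative cells (log2 change 0.04 ± 0.175, edgeR adjusted p 0.904). A rise of under 2-fold was called for foxk1 (0.76, edgeR adjusted p 0.0405) and for foxn3 (0.68, edgeR adjusted p 0.0428), and each lost its call under 6 alternatives. The gene foxn4, which in zebrafish acts in the retina and in the atrioventricular canal of the heart, was called lower, with 51 and 25 counts in positive cells, against 158 and 127 counts in negative cells (log2 change -1.86 ± 0.439, edgeR adjusted p 0.0193). That call was lost without negative replicate 1 (-1.74) and without negative replicate 2 (-1.95), and the change was -2.65 without positive replicate 1. Both FOXN2 IDs, both FoxQ1 genes and foxp2 were not called.

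In 7 members, or 14.3% of those tested, CPM in positive replicate 1 exceeded that in positive replicate 2 by a log2 ratio of at least 1.5, beside 3.21% of 19016 genes with counts in both libraries, and in 0 members the reverse held, beside 0.763%. The 7 were foxa1 (1.80), FOXB1 ENSDARG00000089042 (2.11), foxc1a (1.89), foxc1b (1.86), foxd7 (1.86), FOXK2 ENSDARG00000030583 (1.77) and FOXL2 ENSDARG00000068417 (2.31). The next highest tested member was foxn4 (1.36), and the comparison with all genes was made at the limit of 1.5 only. The log2 ratio of the negative replicates lay between -1.19 and 0.91 in every tested member. Marker lists had median log2 ratios of positive replicate 1 over 2 from -0.41 (endothelial) to 0.37 (forebrain), with single genes as high as 2.02 in the notochord and floor plate list, 1.69 in the neural crest list and 1.66 in the endothelial list. Without positive replicate 1 the count of members called was 11 higher and 20 lower, and without positive replicate 2 it was 11 higher and 17 lower.

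**Figure D5:**
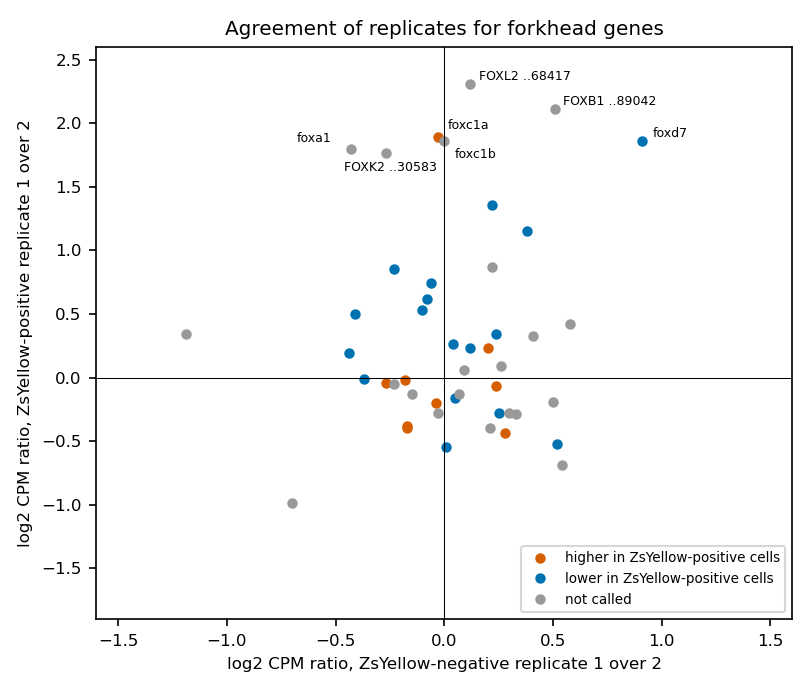
Log2 CPM ratio of replicate 1 over replicate 2 for 47 tested forkhead genes, in ZsYellow-positive libraries (y axis) and ZsYellow-negative libraries (x axis), coloured by call. The 7 named genes lie above 1.5 on the y axis and 0 lie below -1.5, while the x values run from -1.19 to 0.91.

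Calls that did not depend on the choices tried were made for 15 of the 27 members, under each of 12 alternative fits. They were foxh1, foxi1, foxi2 and FOXO1 ENSDARG00000099555 among the higher ones. The lower ones were FOXB1 ENSDARG00000053650, foxd1, foxd2, foxd3, foxe3, foxf2a, foxf2b, foxi3a, foxj1b, foxl1 and FOXL2 ENSDARG00000042180.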

How the data were processed

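Libraries were made from about 50 ng of Trizol-purified RNA with a low-input kit that primes on poly(A) tails, followed by tagmentation, and sequenced in pairs on a HiSeq2500, per the labels' protocols. The submitters' processing notes name Salmon 1.2.1, BWA 0.7.12-r1039 and bedtools 2.25.0.64 and the builds Zv9 and GRCz11, without their roles. The use of strand is not given in the sources used here. Per the file headers, the deposited table holds a whole-number count per gene and library, taken as an estimated count made whole by the authors, since in 20 entries the count is 0 but TPM is not. Its other columns are the log2(TPM + 1) values that the authors deposited, turned back into TPM here. No molecular identifiers are mentioned, so counts need not be independent molecules, and amplification from little RNA can blur low genes.

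Symbols came from a table that named 23599 of 25873 IDs. Counts were tested with edgeR 4.0.16 in R 4.3.3 (quasi-likelihood F test, TMM factors from 0.974 to 1.053, filterByExpr at 10 counts), which left 19084 genes. The SE was derived from the log2 fold change and its F statistic. The test was checked on simulated data. Alternatives used DESeq2 1.42.0 and limma 3.58.1. Values in every library are given for 22 members called with at least a 2-fold change. They are also given for some of the most abundant members of a subfamily and for some copies, but not for all. The other genes named are nkx2.5 and the highest and lowest of each of 5 lists of related genes. Of the 64 entries of these lists, 40 were matched by name. Of 99 entries in 14 lists of cell type markers, 74 were matched. The genes smad2, spag6, dnai2b, efhc2, hoxb1a, gata5, gata6, sox3, krt4, gcm2 and ca2 were named after their values were seen. The same holds for rfx2, mns1, sox19a, tbxta and col8a1a. The members and lists were chosen with earlier results of these data known. No sequence is shown. Values of some members are not reported here, and they stay in the counts over all members.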

Additional observations from a re-analysis of the deposited data

How the results depend on the processing

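The 27 calls kept their direction under each alternative fit tried, and 12 of them lost the call under at least 1. Of the members not called, 8 gained a call under at least 1 alternative: foxp1b with upper-quartile factors, FOXB1 ENSDARG00000089042 with the replicate block, and the same FOXB1 ID, foxa1, foxc1b, foxj2, FOXK2 ENSDARG00000030583, FOXL2 ENSDARG00000068417 and foxo4 without 1 of the positive libraries. The number of members called higher, 9, became 5 with limma on log2(TPM + 1), 5 at an adjusted p under 0.01, and 4 to 11 when 1 library was left out. The number called lower, 18, ran from 12 to 20 when 1 library was left out and from 14 to 19 under the other alternatives. Leaving out a negative library cost most calls, 4 higher and 14 lower without negative replicate 1 and 5 and 12 without negative replicate 2. Where only 1 library remained in a group, it was assumed to vary as the other group did. With the replicate block, 8 members were called higher and 19 lower. The labels do not say that a replicate number marks a shared sort, and the deviations of same-numbered libraries correlated at -0.0923 across genes, so whether the numbers pair the libraries cannot be told.

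Changes of sign were limited to 12 members that were not called. Leaving out 1 library gave ranges for foxa1 (-0.60 to 1.17), foxc1b (-1.45 to 0.38), foxf1 (-0.03 to 0.53), FOXK2 ENSDARG00000011609 (-0.07 to 0.18), FOXK2 ENSDARG00000030583 (-0.02 to 1.72), FOXL2 ENSDARG00000068417 (-0.49 to 1.78), foxm1 (-0.15 to 0.02), FOXN2 ENSDARG00000055574 (-0.81 to 0.20), foxo3a (-0.15 to 0.17), foxo4 (-0.04 to 0.68), foxp1a (-0.16 to 0.14) and foxp2 (-0.28 to 0.11). Upper-quartile factors gave -0.06 for FOXK2 ENSDARG00000011609 and -0.10 for foxo3a. The filter at 1 CPM gave -0.01 for foxo3a and both limma fits -0.02. DESeq2 size factors, the absence of a filter and the DESeq2 Wald test gave 0.00 for foxp1a. With limma on log2(TPM + 1), a scale that understates the change of low genes, foxd7 was at -1.17, foxf2b at -1.14, foxl1 at -1.26 and foxn4 at -0.94, all still called. The cause of the changes of sign was not tested. Low counts limit what can be seen for foxq1b, which had at most 26 in any library.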
